A study of Mus musculus with 17 samples.

Results

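The gene for neuropeptide Y, Npy, and the genes for 3 of its receptors, Npy1r, Npy2r and Npy5r, were followed through the kindling experiment. They were found in the count table by their Ensembl identifiers, and are 4 of its 55471 genes and 4 of the 39260 with at least 1 count. All 4 were detected in every library and passed every filter on low counts in the comparison of the genotypes over all treatments. The rule that finds them uses no measured value, but these genes were picked for study with earlier results of these data known.

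Hippocampal total RNA was sequenced from C57BL/6 mice (C57BL/6J in the methods) aged 3 to 6 months in 17 libraries. CBP-ifKO mice carry floxed Crebbp alleles and the tamoxifen-inducible recombinase creERT2 under the Camk2a promoter, so that excitatory neurons of the forebrain lose full-length CBP, a transcriptional coactivator and lysine acetyltransferase, in the adult. Other cells of the hippocampus, interneurons among them, keep it. Both genotypes received 5 doses of tamoxifen. The methods describe control littermates as lacking the recombinase, although the labels name the driver in both genotypes. Mice labelled Sal had no kindling and were given saline (Control, n = 3, and CBP-ifKO, n = 3). PTZ0 mice were kindled with the GABA-A antagonist pentylenetetrazole (PTZ) at 45 mg/kg on alternate days and received saline about a week later (n = 3 and n = 3). PTZ45 mice were kindled in the same way and received a last 45 mg/kg of PTZ (Control, n = 2, and CBP-ifKO, n = 3). Tissue was collected 45 min after that injection in every group. Kindled names the PTZ schedule here, not its outcome. The paper reports that all controls came to have seizures on it, whereas no CBP-ifKO reached the stage of progressive seizures. Comparisons of the genotypes in kindled mice carry this difference too.

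Neuropeptide Y is a peptide transmitter that hippocampal interneurons store and release, and it is best known there for damping the release of glutamate and for its rise after seizures. Its receptors Y1, Y2 and Y5 couple to inhibitory G proteins of the Gi/o class, which lower cyclic AMP, close presynaptic calcium channels and open potassium channels of the GIRK family. Y2 sits largely on axon terminals, Y1 largely on dendrites and cell bodies, and Y5 is commonly found in cells that also carry Y1.

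In GENCODE M21 (build GRCm38), Npy (ENSMUSG00000029819) is on the plus strand at chr6:49822710-49829507 and Npy2r (ENSMUSG00000028004) is on the minus strand at chr3:82538383-82548084. Npy1r (ENSMUSG00000036437) is on the plus strand at chr8:66697192-66706792. Npy5r (ENSMUSG00000044014) is on the minus strand at chr8:66679965-66688128. Npy1r and Npy5r are therefore divergent neighbours, and 9063 bases lie between their starts. They do not overlap, so no read could be assigned to both. Stretches at the starts of this pair are shown because these were the members that were lower in CBP-ifKOs over all treatments. They were taken from RefSeq (GRCm38.p6), which held a window of 250 bases before the start of each of the 4 genes, and only bases before the annotated starts, plus at most 30 bases around a motif, are printed. Capitals mark the E-box CACGTG, 40 bases before the RefSeq start of Npy5r, and the AP-1 motif TGANTCA, 231 bases before that of Npy1r. The AP-1 motif straddles the GENCODE start of Npy1r given above, and all but its first base lie inside the GENCODE gene.

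Npy5r, chr8:66688129-66688344, minus strand: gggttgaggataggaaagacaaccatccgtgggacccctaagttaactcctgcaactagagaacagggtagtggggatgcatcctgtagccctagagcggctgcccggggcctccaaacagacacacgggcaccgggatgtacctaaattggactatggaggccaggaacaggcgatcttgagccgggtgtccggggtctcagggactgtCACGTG

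Npy1r, chr8:66697172-66697201, plus strand: cttgtaaatgcgccttgctTGAGTCAagga

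The motifs were searched on both strands in the whole 250-base windows. Among 32536 windows of this length, 6.04% held the E-box and 6.73% the AP-1 motif. The GC box GGGCGG, found in 33.0% of windows, was found once before Npy and once before Npy2r. The cyclic AMP response element TGACGTCA (1.56% of windows), its TGACG core (17.9%), which the full element contains on both strands, and TATAAA (12.3%) were in none of the 4 windows. The windows held 21 CG pairs for Npy, 10 for Npy1r, 12 for Npy2r and 12 for Npy5r, against a median of 6 over all windows. A match in letters describes the window and does not show a bound site.

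Libraries held 5831992 to 18735643 counts. Crebbp in CBP-ifKOs was at 55.9% ± 4.38 (SD, n = 9) of the control mean, with no overlap, and Esr1, whose hormone-binding part is built into creERT2, was higher by 3.81 on the log2 scale (SE 0.10). Fos, an immediate early gene, was at 2483 and 2915 normalized counts in Control PTZ45 and at 23.7 to 62.4 in the other controls. In CBP-ifKOs it was at 163, 250 and 288 in PTZ45 and at 13.4 to 34.0 in the other groups. Markers of interneurons, pyramidal cells of CA1 and CA3, granule cells and excitatory neurons in general were detected in every group, and those of the hypothalamus, where Npy is abundant in other neurons, summed to 8.20 to 20.9 normalized counts over Agrp, Pomc and Hcrt, with Hcrt at 0 in both PTZ0 groups. In 5 libraries the sum of the choroid plexus markers Ttr, Folr1, Kl, Clic6 and Kcnj13 was 10745 to 44033 normalized counts, against 435 to 1136 in the others. These were Control Sal replicate 2, Control PTZ0 replicate 2, CBP-ifKO Sal replicate 1, CBP-ifKO PTZ0 replicate 3 and CBP-ifKO PTZ45 replicate 2. Values without them are given beside many, but not all, of the members' results. Lane 3 held Control Sal and Control PTZ0, lane 4 Control PTZ45 and CBP-ifKO Sal, and lane 5 CBP-ifKO PTZ0 and PTZ45, so at each treatment the genotypes were sequenced in different lanes.

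Normalized counts, counts divided by the size factor of the library, ranked Npy2r first (mean 806 ± 97.1, SD, n = 17), then Npy1r (368 ± 59.5), Npy (263 ± 42.6) and Npy5r (103 ± 11.04). Per kilobase of exon the ligand came first. On that scale Npy was at 464 ± 75.3, Npy2r at 238 ± 28.7, Npy1r at 107 ± 17.2 and Npy5r at 40.2 ± 4.32 normalized counts per kb. The ranges over the 17 libraries did not overlap between neighbours in this order: 348 to 602 for Npy, 181 to 293 for Npy2r, 87.6 to 132 for Npy1r and 32.4 to 46.7 for Npy5r. Raw counts were lowest in CBP-ifKO Sal replicate 2, at 45 for Npy5r, 149 for Npy, 162 for Npy1r and 353 for Npy2r. Npy5r therefore has the widest counting error. The related ligands Pyy and Ppy had 0 counts in all 17 libraries, and the receptors Npy4r and Npy6r had at most 1 count per library.

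**Figure D1:**
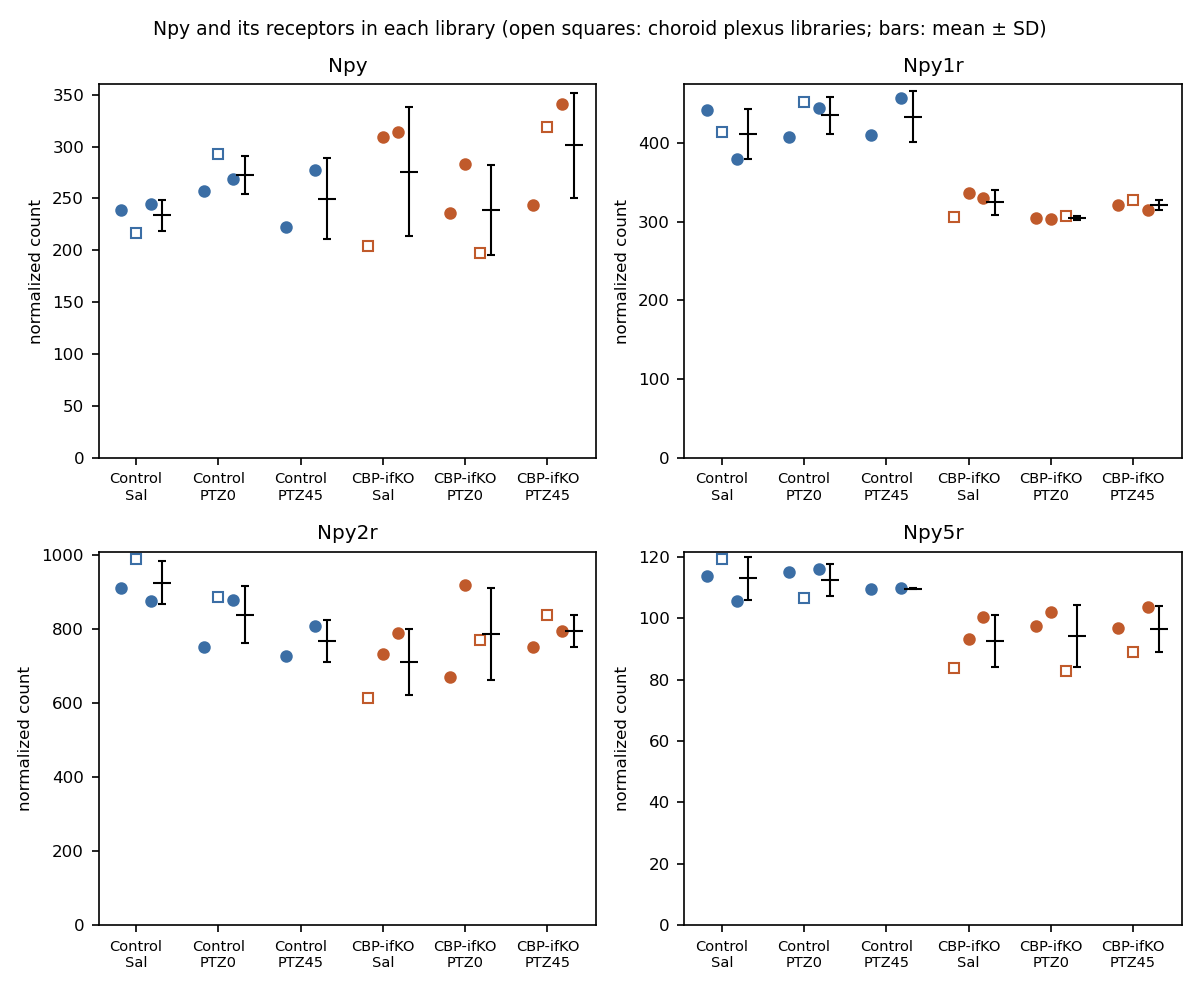
Normalized counts of Npy, Npy1r, Npy2r and Npy5r (vertical axes, from 0) in each library of the 6 groups (horizontal axes), with the group mean and SD as black bars and the 5 choroid plexus libraries as open squares. Every CBP-ifKO library is below every control library for Npy1r (303 to 336 against 379 to 456) and Npy5r (82.8 to 104 against 106 to 119), while the genotypes overlap for Npy and Npy2r.

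The comparison of the genotypes asks what the loss of CBP from excitatory neurons does to this signalling system. Npy1r, which encodes the Y1 receptor, and Npy5r, which encodes the Y5 receptor, were both lower in CBP-ifKOs over all treatments. Npy1r was at 74.4% ± 2.92 (SD, n = 9) of the control mean and Npy5r at 84.3% ± 6.88. Npy2r and Npy did not pass the test. In this whole-tissue RNA, fewer cells that express a gene and less of its RNA per cell cannot be told apart.

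Npy1r was at 441, 414 and 379 normalized counts in Control Sal, at 407, 452 and 445 in Control PTZ0 and at 410.3 and 456 in Control PTZ45. It was at 306, 336 and 330.3 in CBP-ifKO Sal, at 304, 303 and 308 in CBP-ifKO PTZ0 and at 321, 327 and 315 in CBP-ifKO PTZ45. The lowest control library was above the highest CBP-ifKO library, and the order of the 6 groups by mean was Control PTZ0 (435), Control PTZ45 (433), Control Sal (411), CBP-ifKO Sal (324), CBP-ifKO PTZ45 (321) and CBP-ifKO PTZ0 (305). Neighbours in this order overlapped except at the step between the genotypes and between CBP-ifKO PTZ45 and PTZ0. The SD over the 9 CBP-ifKO libraries was 12.4, against 27.1 over the 8 control libraries.

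Npy5r was at 114, 119 and 106 normalized counts in Control Sal, at 115, 107 and 116 in Control PTZ0 and at 109.7 and 109.7 in Control PTZ45. It was at 83.9, 93.4 and 100.5 in CBP-ifKO Sal, at 97.4, 102 and 82.8 in CBP-ifKO PTZ0 and at 96.7, 89.0 and 104 in CBP-ifKO PTZ45. Here too the genotypes did not overlap, but the highest CBP-ifKO library (103.8) and the lowest control library (105.8) were close. The 3 control groups overlapped one another, and so did the 3 CBP-ifKO groups.

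Over all treatments, with treatment as a term of the fit, the log2 fold change of Npy1r was -0.43 (SE 0.05, 95% interval -0.54 to -0.33, DESeq2 adjusted p = 1.18e-13). That of Npy5r was -0.25 (SE 0.09, interval -0.43 to -0.08, DESeq2 adjusted p = 0.0274). So 2 of the 4 members were called lower and 0 higher, where 19.3% of all 18682 genes tested were called in either direction and 11.5% were called lower. The groups did not overlap in the lower direction for 2.16% of the genes tested. By log2 fold change Npy1r was at place 475 and Npy5r at place 1070 among the 2157 genes called lower, whose median was -0.25.

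The call of Npy1r was kept in 24 of 25 alternatives and that of Npy5r in 15 of 25. Without the 5 choroid plexus libraries, an alternative chosen after seeing the data, Npy1r was at -0.41 (DESeq2 adjusted p = 2.18e-06) and Npy5r at -0.17 (adjusted p = 0.382). With the sequencing lane as a term, Npy1r was at -0.27 (SE 0.18, adjusted p = 0.959) and Npy5r at -0.21 (SE 0.31, adjusted p = 1.0), and 131 genes in all were called instead of 3606. Within lane 4, where the treatments differ, Npy1r was at 306 to 336 normalized counts in CBP-ifKO Sal and at 410.3 to 456 in Control PTZ45, and Npy5r at 83.9 to 100.5 and at 109.7 in both controls.

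**Figure D2:**
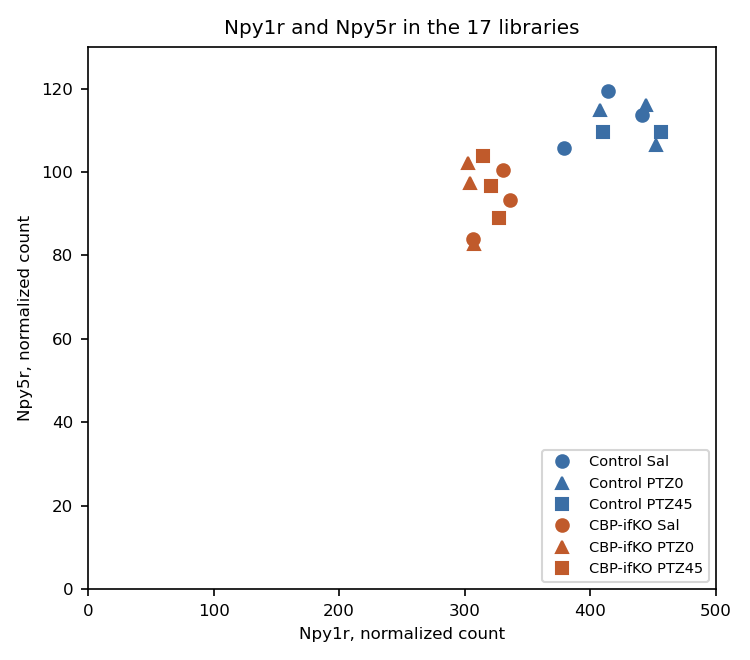
Npy1r (horizontal axis) against Npy5r (vertical axis), both in normalized counts, with 1 point for each of the 17 libraries, blue for control and orange for CBP-ifKO, and the shape giving the treatment. The genotypes form 2 separate clouds on both axes, and within a genotype the points show no common slope (Pearson's r = 0.11 in each).

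Npy1r and Npy5r differed between the genotypes in the same direction, but within a genotype no correlation of their levels passed a test. Pearson's r was 0.11 over the 8 control libraries (exact permutation p = 0.781, Benjamini-Hochberg adjusted 0.841) and 0.11 over the 9 CBP-ifKO libraries (exact permutation p = 0.772, adjusted 0.841). Spearman's rho was 0.12 in controls (exact permutation p = 0.793, adjusted 0.865) and -0.12 in CBP-ifKOs (exact permutation p = 0.776, adjusted 0.865). Without the 2 libraries farthest from the median of Npy1r, r was -0.36 in controls and -0.02 in CBP-ifKOs. Of 12 such relations between members within a genotype, none passed the adjustment, and the lowest adjusted p was 0.386. The next protein-coding gene beyond Npy1r, Naf1 at 153424 bases, had a log2 fold change of -0.20 (SE 0.09, DESeq2 adjusted p = 0.119). Beyond Npy5r it was Tktl2 at 161629 bases, with a mean of 5.47 normalized counts and no adjusted p.

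At single treatments the same tests had 2 or 3 libraries a group. Npy1r was lower in CBP-ifKO PTZ0 than in Control PTZ0, with a log2 fold change of -0.51 (SE 0.11, interval -0.73 to -0.29, DESeq2 adjusted p = 0.000266). It was the 1 member called there, where 6.68% of genes were called and 5.25% called lower. Its log2 fold change was -0.35 in Sal (SE 0.13, interval -0.60 to -0.11, DESeq2 adjusted p = 0.138) and -0.43 in PTZ45 (SE 0.14, interval -0.71 to -0.15, DESeq2 adjusted p = 0.0721), so the intervals of the 3 treatments overlapped. Without the choroid plexus libraries the value in PTZ0 was -0.49 with 4 libraries left (DESeq2 adjusted p = 0.184).

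Npy5r was called at no single treatment. Its log2 fold changes were -0.29 in Sal (interval -0.69 to 0.11, DESeq2 adjusted p = 0.71), -0.27 in PTZ0 (interval -0.65 to 0.12, adjusted p = 0.542) and -0.18 in PTZ45 (interval -0.66 to 0.29, adjusted p = 0.902). Without the choroid plexus libraries they were -0.18, -0.21 and -0.13. The CBP-ifKO libraries were below the control libraries at each treatment for both Npy1r and Npy5r. Of all genes tested, 11.1% did so in Sal, 15.2% in PTZ0 and 18.3% in PTZ45.

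**Figure D3:**
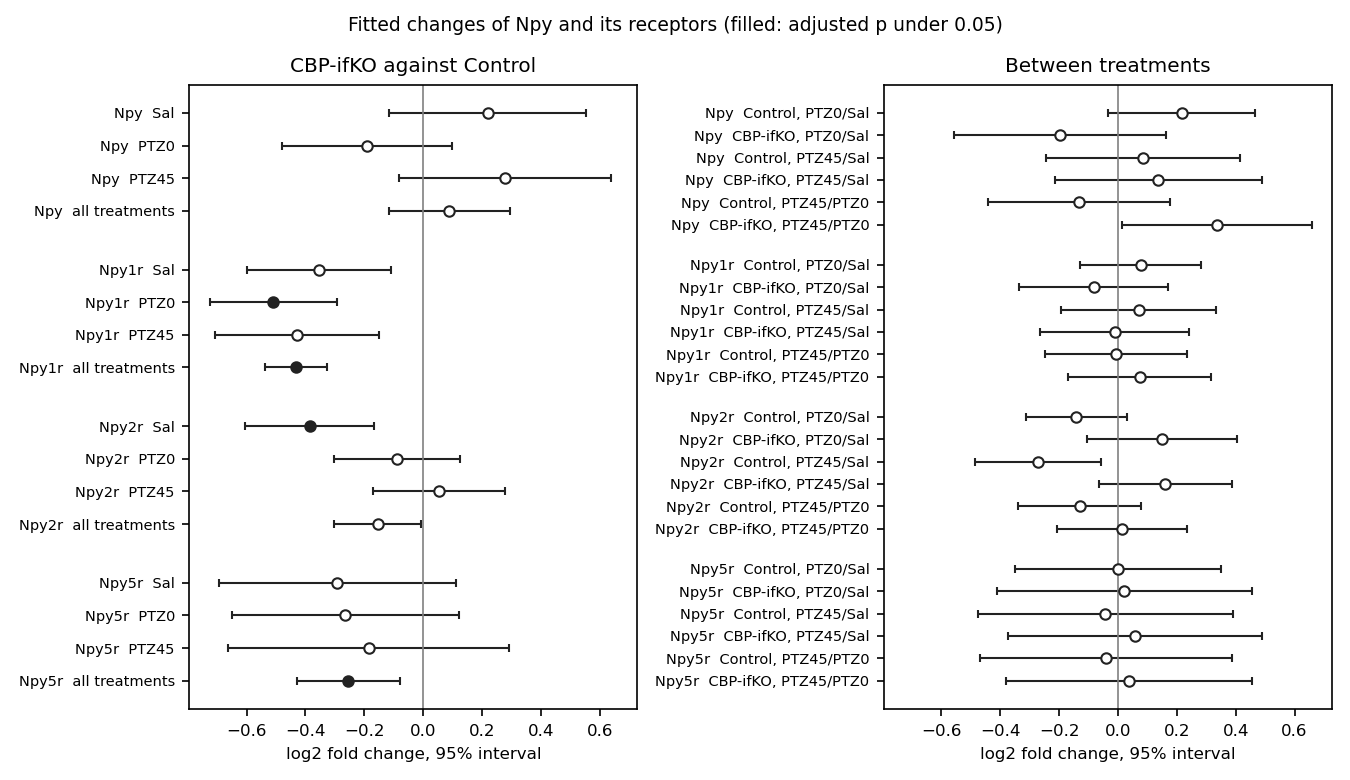
Log2 fold changes (horizontal axes) of the 4 members with 95% intervals, on the left CBP-ifKO against Control at each treatment and over all treatments, on the right between treatments within a genotype. Filled points passed a DESeq2 adjusted p of 0.05, which were Npy1r in PTZ0 and over all treatments, Npy2r in Sal and Npy5r over all treatments, and no point on the right.

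Npy2r, which encodes the presynaptic Y2 receptor, differed between the genotypes in mice that had never been kindled. It was at 911, 989.9 and 876 normalized counts in Control Sal and at 612, 732 and 788 in CBP-ifKO Sal, with no overlap. The log2 fold change was -0.39 (SE 0.11, interval -0.61 to -0.17, DESeq2 adjusted p = 0.0332). This was the 1 member called in Sal, where 2.04% of genes were called and 1.77% called lower. The call was kept in 5 of 14 alternatives. It was lost with edgeR (-0.38, adjusted p = 0.111) and without the choroid plexus libraries (-0.24, DESeq2 adjusted p = 1.0), and was kept in 1 of the 6 fits that left out a library. CBP-ifKO Sal replicate 1, a choroid plexus library, was the lowest of its group for all 4 members, and without it the value was -0.28 (DESeq2 adjusted p = 0.358).

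In the kindled groups Npy2r overlapped between the genotypes. It was at 751, 888 and 879 in Control PTZ0 and at 669.6, 918 and 770.4 in CBP-ifKO PTZ0, and at 727 and 808 in Control PTZ45 and 752, 838 and 794 in CBP-ifKO PTZ45. The log2 fold changes were -0.09 in PTZ0 (interval -0.30 to 0.12, DESeq2 adjusted p = 0.761) and 0.05 in PTZ45 (interval -0.17 to 0.28, adjusted p = 0.951), and -0.030 and 0.014 without the choroid plexus libraries. No member was called in PTZ45, where 3.07% of genes were. Over all treatments the log2 fold change of Npy2r was -0.16 (SE 0.08, interval -0.30 to -0.01, unadjusted p = 0.0396, DESeq2 adjusted p = 0.142). It was not called in 23 of 25 alternatives, was -0.084 without the choroid plexus libraries and -0.24 with the lane as a term. The order of the groups by mean was Control Sal (926), Control PTZ0 (839), CBP-ifKO PTZ45 (794), CBP-ifKO PTZ0 (786), Control PTZ45 (768) and CBP-ifKO Sal (711), and each group overlapped its neighbours in this order.

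Whether the change of Npy2r from Sal to PTZ45 differed between the genotypes was tested as an interaction. This change takes in both kindling and the last injection, and an interaction from PTZ0 to PTZ45 was not tested. From Sal to PTZ45 the log2 fold change of Npy2r was -0.27 in controls (SE 0.11, interval -0.49 to -0.06, DESeq2 adjusted p = 0.383) and 0.16 in CBP-ifKOs (SE 0.12, interval -0.07 to 0.39, adjusted p = 1.0). The 2 Control PTZ45 libraries were below the 3 Control Sal libraries, as for 15.6% of genes tested. The difference of these changes was 0.43 (SE 0.16, interval 0.13 to 0.74, unadjusted p = 0.00568), which did not pass the adjustment over all genes (DESeq2 adjusted p = 1.0). In that test 0.329% of genes were called, none of them a member, and edgeR gave Npy2r an adjusted p of 0.768. Without the choroid plexus libraries the interaction was 0.24 (unadjusted p = 0.173), and the changes were -0.22 in controls and 0.018 in CBP-ifKOs.

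Npy, the ligand, was not called in any comparison of the genotypes. It was at 239, 217 and 245 normalized counts in Control Sal, at 257, 293 and 269 in Control PTZ0 and at 222 and 277 in Control PTZ45. It was at 204, 309 and 314 in CBP-ifKO Sal, at 236, 284 and 197 in CBP-ifKO PTZ0 and at 244, 319 and 341 in CBP-ifKO PTZ45. The genotypes overlapped at each treatment, and the CBP-ifKO libraries spread more widely (SD 53.0, n = 9) than the control libraries (SD 26.6, n = 8). With all treatments in the fit, its log2 fold change was 0.09 (SE 0.11, interval -0.12 to 0.30, DESeq2 adjusted p = 0.619), so a difference above 1.23-fold in favour of CBP-ifKOs or below 0.922-fold lay outside the interval. The order by group mean was CBP-ifKO PTZ45 (301), CBP-ifKO Sal (276), Control PTZ0 (273), Control PTZ45 (249.5), CBP-ifKO PTZ0 (239) and Control Sal (234), with overlap between all neighbours in this order.

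At single treatments the log2 fold changes of Npy between the genotypes were 0.22 in Sal (interval -0.12 to 0.55, DESeq2 adjusted p = 0.763), -0.19 in PTZ0 (interval -0.48 to 0.10, adjusted p = 0.56) and 0.28 in PTZ45 (interval -0.08 to 0.64, adjusted p = 0.663). The lowest CBP-ifKO libraries in Sal and in PTZ0 were both choroid plexus libraries. Without the 5 such libraries the values were 0.36 in Sal, -0.0089 in PTZ0 and 0.23 in PTZ45. Leaving out a library moved them between 0.088 and 0.41 in Sal (the highest without CBP-ifKO Sal replicate 1), between -0.34 and -0.061 in PTZ0 (the value nearest 0 without CBP-ifKO PTZ0 replicate 3) and between 0.12 and 0.44 in PTZ45 (without Control PTZ45 replicate 1 and replicate 2). Over all treatments and without the choroid plexus libraries the value was 0.19 (unadjusted p = 0.0528, DESeq2 adjusted p = 0.212), and with the lane as a term it was 0.69 (SE 0.30, DESeq2 adjusted p = 0.586).

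The comparisons between treatments ask whether kindling or the last PTZ injection changed these genes. No member was called in any of the 6 pairs of treatments within a genotype. The share of all genes called was 1.17% for Control PTZ45 against Sal, 1.25% for Control PTZ45 against PTZ0, 0.294% for CBP-ifKO PTZ45 against Sal, 0.0872% for CBP-ifKO PTZ45 against PTZ0, 0.00843% for Control PTZ0 against Sal and 0.0112% for CBP-ifKO PTZ0 against Sal. In the last of these, 4 genes were called by DESeq2 and 120 had an unadjusted p under 0.05.

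In controls, Npy was higher in the 3 PTZ0 libraries (257 to 293) than in the 3 Sal libraries (217 to 245), and both groups were sequenced in the same lane. The log2 fold change was 0.22 (SE 0.13, interval -0.03 to 0.47, unadjusted p = 0.0881, DESeq2 adjusted p = 1.0), and 3.7% of genes tested had PTZ0 libraries all above the Sal libraries. This log2 fold change was 0.12 without the choroid plexus libraries (unadjusted p = 0.514, DESeq2 adjusted p = 1.0). In CBP-ifKOs the same comparison gave -0.20 (SE 0.18, interval -0.56 to 0.17, adjusted p = 1.0) with overlapping libraries, and from -0.38 without Sal replicate 1 to -0.072 without PTZ0 replicate 3 when a library was left out. The difference between the genotypes was -0.41 (SE 0.23, unadjusted p = 0.0751, DESeq2 adjusted p = 1.0), in a test that called 0.0% of genes at an adjusted p under 0.05 and had 141 genes with an unadjusted p under 0.05. Its counterpart in edgeR also called 0 genes and had 374 with an unadjusted p under 0.05.

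Among kindled CBP-ifKOs, all sequenced in lane 5, Npy was at 244 to 341 normalized counts after the last PTZ and at 197 to 284 after saline. The groups overlapped, and the log2 fold change was 0.34 (SE 0.16, interval 0.01 to 0.66, unadjusted p = 0.0406, DESeq2 adjusted p = 1.0). When a library was left out it ranged from 0.21 without PTZ0 replicate 3 (unadjusted p = 0.249) to 0.48 without PTZ0 replicate 2 (unadjusted p = 0.00981). It was 0.16 with the choroid plexus libraries left out (unadjusted p = 0.466). In kindled controls it was -0.13 (SE 0.16, interval -0.44 to 0.18, adjusted p = 0.93), and -0.29 without PTZ45 replicate 2, -0.081 without the choroid plexus library and -0.054 with GC correction. From Sal to PTZ45 the log2 fold change of Npy was 0.09 in controls (interval -0.24 to 0.41, adjusted p = 0.991) and 0.14 in CBP-ifKOs (interval -0.21 to 0.49, adjusted p = 1.0). Without the choroid plexus libraries these values were 0.037 in controls and -0.095 in CBP-ifKOs, and leaving out a library could turn either sign. These pairs share groups, so their values are not independent of each other.

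For Npy1r the 6 log2 fold changes between treatments lay between -0.08 and 0.08, and for Npy5r between -0.04 and 0.06, with none called. The intervals of the change from Sal to PTZ45 were -0.19 to 0.33 in controls and -0.27 to 0.24 in CBP-ifKOs for Npy1r, and -0.48 to 0.39 and -0.37 to 0.49 for Npy5r. In CBP-ifKOs the 3 PTZ45 libraries of Npy1r (315 to 327) lay above the 3 PTZ0 libraries (303 to 308), as for 4.67% of genes tested, with a log2 fold change of 0.07 (SE 0.12, DESeq2 adjusted p = 1.0). With both genotypes in 1 fit of PTZ0 against Sal, the 95% intervals of the 4 members lay between -0.22 and 0.25 on the log2 scale and each included 0. In this fit DESeq2 called 0.0% of 38090 genes, 520 genes had an unadjusted p under 0.05, and edgeR called 0.

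Other genes of the pathway were counted from a list of 18, of which 16 had counts and 14 could be tested over all treatments. In CBP-ifKOs 5 of the 14 were called lower and 0 higher, where 11.5% of all genes tested were called lower and 19.3% in either direction. The median log2 fold change was -0.06 against 0.01 over all genes tested. Of the 5 genes for the maturation and breakdown of the peptide, 3 were called lower, against the same 11.5%. Pcsk1, a convertase that cleaves prohormones, was at 504 to 667 normalized counts in controls and at 331 to 455 in CBP-ifKOs (log2 fold change -0.57, SE 0.07, DESeq2 adjusted p = 6.02e-15). Pam, the enzyme that amidates peptide ends, was at 3076 to 3572 in controls and at 2669.9 to 2997 in CBP-ifKOs (-0.24, SE 0.03, adjusted p = 1.57e-10). Neither gene overlapped between the genotypes, while Pcsk2, the other convertase, did (-0.12, SE 0.04, adjusted p = 0.0449). The carboxypeptidase Cpe (-0.06, SE 0.05, adjusted p = 0.456) and the peptidase Dpp4 (0.19, SE 0.16, adjusted p = 0.454) were not called.

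Among 9 genes for the Gi/o proteins and the channels they act on, 2 were called lower, where 11.5% of all genes were. Kcnj9, a GIRK channel subunit, had a log2 fold change of -0.31 (SE 0.05, DESeq2 adjusted p = 6.46e-09) and Gnai1, an inhibitory G protein subunit, of -0.15 (SE 0.04, adjusted p = 0.00348). The median over the 9 was 0.01. Without the choroid plexus libraries, 4 of 14 pathway genes were called lower and 0 higher, Pcsk2 being the call that was lost, where 7.86% of all genes tested were called lower. At single treatments the pathway genes called lower in CBP-ifKOs were Pcsk1 in Sal, Pcsk1, Pam and Kcnj9 in PTZ0, and Pcsk1 and Kcnj9 in PTZ45. Between treatments 1 was called, Kcnj3, another GIRK subunit, higher in Control PTZ45 than in Control PTZ0 (0.25, SE 0.07, adjusted p = 0.048).

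Markers of hippocampal interneurons, the cells that hold the peptide, were counted from a list of 16, and 7 of the 15 tested were called lower in CBP-ifKOs over all treatments and 0 higher, where 11.5% of all genes tested were called lower. Their median log2 fold change was -0.18, and the summed level of the 16 was 12832 to 13386 normalized counts in controls and 10858 to 11997 in CBP-ifKOs, without overlap and with no marker at 0 in a whole group. Cck, a peptide of basket cells that pyramidal cells also express, had the most negative value (-0.62, SE 0.09, DESeq2 adjusted p = 3.69e-11), followed by Lamp5 (-0.61, SE 0.10, adjusted p = 1.87e-08), a marker of neurogliaform cells. Sst, which marks the class of interneurons that includes many Npy cells, was at -0.28 (SE 0.06, adjusted p = 0.000157). Gad1, a GABA-synthesizing enzyme, was at -0.14 (SE 0.03, adjusted p = 1.11e-05), while Gad2, the other such enzyme, was at 1695 ± 96.1 normalized counts in controls (SD, n = 8) and 1705 ± 105 in CBP-ifKOs (SD, n = 9). Without the choroid plexus libraries 6 of 14 were called lower, against 7.86% of all genes. A shorter list held 7 of these interneuron markers. With all libraries, 2 of the 7 were called lower (Gad1 and Sst) and 0 higher, where 11.5% of all genes were called lower. Their sum overlapped between the genotypes, at 6578 to 6930 normalized counts in controls and 5898 to 6608 in CBP-ifKOs.

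Markers of CA1 pyramidal cells moved with the genotype as well. All 4, namely Wfs1, Fibcd1, Mpped1 and Pou3f1, were called lower, where 11.5% of all genes were, and their sum was 3864 to 4678 normalized counts in controls and 2654 to 3501 in CBP-ifKOs. Of the 4, 3 were called lower without the choroid plexus libraries, Pou3f1 being the call that was lost, against 7.86% of all genes. Of the 3 general markers of excitatory neurons none was called in either direction, and of 4 markers of dentate granule cells 2 were called lower (C1ql2 and Tdo2) and 1 higher (Prox1). Among other cell markers, Grik4 of CA3 (1 of 3) and Slc1a3 of astrocytes (1 of 4) were called lower and Rgs9 of the striatum (1 of 3) higher. The call of Grik4 was lost without the choroid plexus libraries, and those of Slc1a3 and Rgs9 were kept. In that fit 3 of the 4 choroid plexus markers tested (Clic6, Kl and Ttr) were also called, 2 lower and 1 higher, where 7.86% of all genes were called lower. The part of these markers in the difference of Npy1r and Npy5r was not tested.

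**Figure D4:**
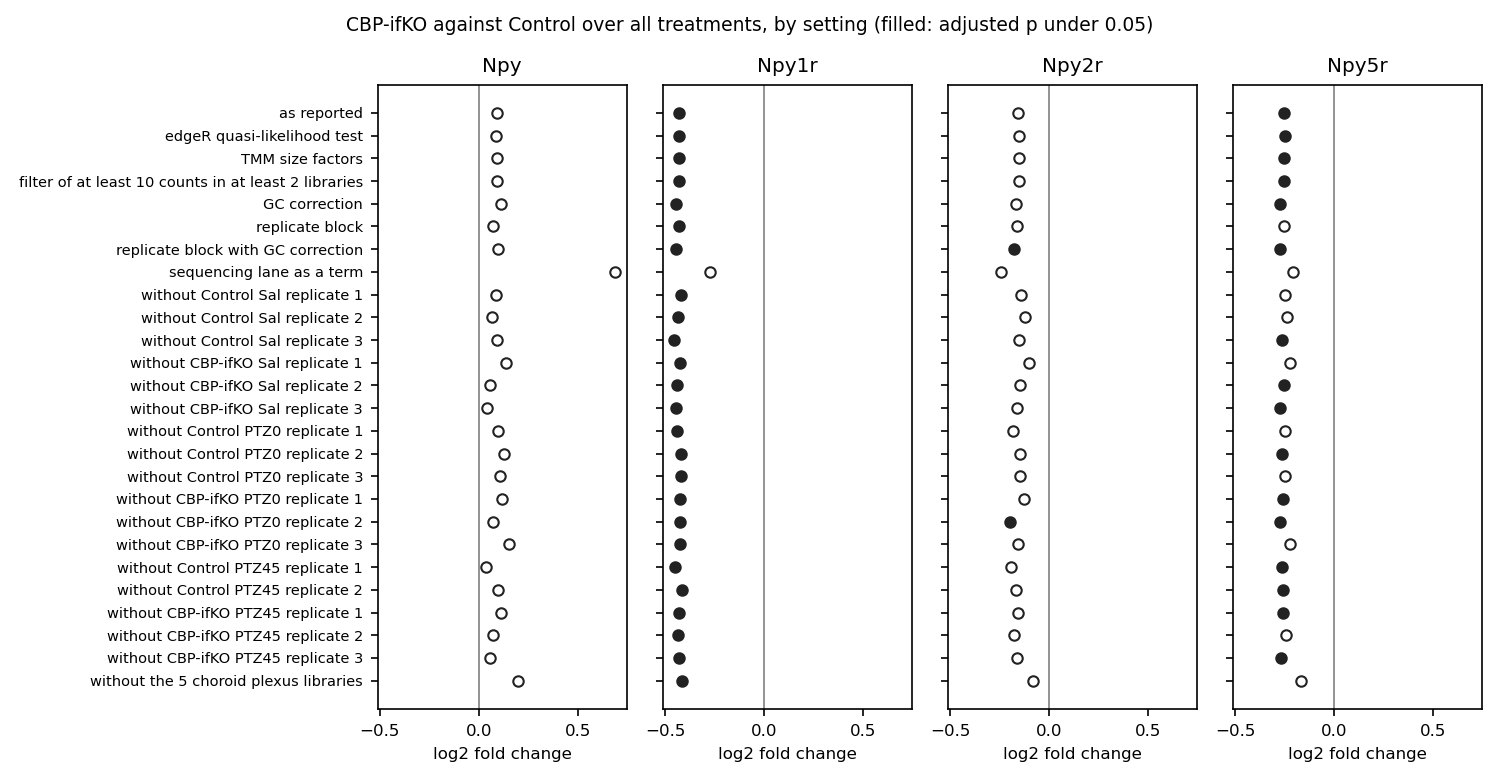
Log2 fold change of each member for CBP-ifKO against Control over all treatments (horizontal axes) under the reported setting and 25 alternatives (vertical axis), filled where the adjusted p was under 0.05. Npy1r stays between -0.45 and -0.42 whichever library is left out and moves to -0.27 with the lane as a term, and Npy5r is filled in 15 of the 25.

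The genes whose levels were most like those of each member over the 17 libraries were named as a description, by Pearson's r of log2(normalized count + 1) over the 13041 genes whose mean reached 50. For Npy1r these were Plcl2 (r = 0.96), Dpysl3, Fam81a, A830036E02Rik and Camk1g. For Npy5r they were Rasgef1a (r = 0.94), Ubl3, Mt2, Arpc5 and Mapt. The 5 closest genes of Npy1r and those of Npy5r had no gene in common, and the genotype difference enters all of these values. For Npy the closest were Csnk2b (r = 0.82), Dynlrb1, Thoc5, Kars and Cenpv, and for Npy2r they were Fcrls (r = 0.83), a gene of microglia, Cyp4f14, Ubac2, Ech1 and Jam3. None of these was a member, a pathway gene or a listed interneuron marker.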

How the data were processed

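The authors deposited raw counts per gene, whole numbers that they had not normalized. They trimmed single-end 50 bp reads of a HiSeq 2500 with Trim Galore 0.6.4, aligned them with STAR 2.6.1 to GRCm38, dropped reads of low mapping quality (mapq of 10 or less) and counted exons with Rsubread; FastQC 0.11.8 is also named. Whether strand was used is not given in the sources used here. Of 18 count columns, 1 matched no sample and was not used; it is named like the 2 columns of Control PTZ45. GENCODE M21 held 99.57% of the gene identifiers and gave positions and names. Exon lengths were those deposited with the counts.

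The members and gene lists were chosen with earlier results of these data known. The main test, as in the study's methods (DESeq2 1.30.1 there), was the two-sided DESeq2 1.42.0 Wald test in R 4.3.3 on genes with at least 1 count, with Benjamini-Hochberg adjustment over all genes after independent filtering and a threshold of 0.05. Each pair of groups had its own fit, and the comparison of genotypes over all treatments used the 17 libraries with treatment as a term. Normalized counts use 1 set of size factors over the 17 libraries. The methods describe the saline-treated kindling samples as hippocampi of individual male mice. For the other groups the sources used here do not say this as plainly, and p-values measure the spread between libraries. The scripts were tested on simulated data.

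Named were the members, their neighbours and the 5 most alike genes. From a list came at most 4 called genes with the largest log2 fold change or its most abundant genes. Gad1, Gad2, Cpe, Dpp4, Pcsk2, Kcnj3, Gnai1 and the markers of CA1 and granule cells were also named after their values were seen. The called interneuron markers Id2, Nos1 and Reln were given no values. The alternatives tried were edgeR 4.0.16 (quasi-likelihood), TMM size factors, keeping genes that reached 10 counts in 2 or more libraries, a GC correction (loess, span 0.5, genes with a mean of at least 20), the replicate number as a block, 1 fit of all 17 libraries, the lane as a term, leaving out each library and, added after the data were seen, leaving out the 5 choroid plexus libraries.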

Additional observations from a re-analysis of the deposited data

How the results depend on the processing

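The lower level of Npy1r in CBP-ifKOs over all treatments was called in 24 of 25 alternatives, with adjusted p from 9.49e-15 to 3.36e-11 when a library was left out (log2 fold change -0.45 to -0.42); with the lane as a term it was -0.27. The cause was not tested, and lane and genotype cannot be told apart at a given treatment. Npy5r was called in 10 of the 17 fits that left out a library (-0.28 to -0.22, DESeq2 adjusted p from 0.0216 to 0.0813). Its call was lost without Control Sal replicate 1 or 2, Control PTZ0 replicate 1 or 3, or, among CBP-ifKOs, without Sal replicate 1, the third of PTZ0 or the second of PTZ45, with the lane as a term (-0.21) and without the choroid plexus libraries (-0.17). The number of members called over all treatments, 2 as reported, was 1 to 3 when a library was left out, 0 with the lane and 1 without the choroid plexus libraries. In Sal, Npy2r was at -0.38 with edgeR, at -0.24 without the choroid plexus libraries and at -0.48 to -0.28 when a library was left out, where 0 to 1 members were called; 0 were called with edgeR and without the choroid plexus libraries, and 2 in 1 fit of all 17 libraries (Npy1r, -0.35, and Npy2r). In PTZ0, 0 were called without the choroid plexus libraries, where Npy1r was at -0.49 with 4 libraries. In PTZ45, 1 was called with edgeR and 1 in 1 fit of all 17 libraries, Npy1r in both (-0.42 and -0.43). Npy2r over all treatments was called in 2 of 25 alternatives, one being without CBP-ifKO PTZ0 replicate 2 (-0.20, DESeq2 adjusted p = 0.0319), and lay between -0.24 (lane) and -0.084 (without the choroid plexus libraries).

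The replicate numbers did not pair the libraries: deviations of libraries with the same number had a median correlation of -0.06 (range -0.52 to 0.53), and 7 of 17 libraries were closest to one of their own number. The numbers are those of the sample titles. The library name of Control PTZ45 replicate 2 carries a 3 instead, so the block in fits with that group, and this check, rest on the title. With the replicate block, Npy5r over all treatments was at -0.25 (DESeq2 adjusted p = 0.0515) and 1 member was called. In Sal the block left 0 members called, with and without GC correction, and Npy2r was at -0.39 with the block and at -0.40 with the block and GC correction. With both, Npy2r over all treatments was called (-0.18, DESeq2 adjusted p = 0.0335), which made 3 members.

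Signs changed for values near 0. Leaving out a library took Npy in Control PTZ45 against Sal from -0.079 to 0.24, Npy in CBP-ifKO PTZ45 against Sal from -0.052 to 0.27, Npy2r between the genotypes in PTZ0 from -0.22 to 0.010 and in PTZ45 from -0.024 to 0.13. Without the choroid plexus libraries Npy in CBP-ifKO PTZ45 against Sal was at -0.095. Over the 9 comparisons between treatments and interactions, 0 of 561 fits of a member under an alternative by DESeq2 or edgeR gave a call, and 81 had the other sign than reported, where the reported values were at most 0.14 in size. The number of genes called over all treatments was 3606 as reported, 131 with the lane and 1870 without the choroid plexus libraries. At single treatments it fell from 306 to 122 in Sal, from 852 to 410 in PTZ0 and from 468 to 102 in PTZ45 with the replicate block, and to 80, 160 and 223 without the choroid plexus libraries. In 1 fit of all 17 libraries it was 614 in Sal and 785 in PTZ45, and edgeR called 157 in Sal. The causes of these shifts were not tested. Npy5r had as few as 45 counts in a library, which limits its precision at single treatments.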
